A study of Mus musculus with 12 samples.

Results

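Insertions at Rif1, at Spen and at the Spen paralogs Rbm15 and Rbm15b were followed through 3 ORFtag screens, with attention to the repressor and PTGR (post-transcriptional gene regulation) screens, both of which select cells that have lost GFP. The genes were picked by name because Rif1 and Spen had more insertions in the sorted cells of both silencing screens than in unsorted cells, so their values and calls in those screens describe that choice and are no independent evidence for it. Of the 4 names, 3 matched a gene among the 20409 in the count tables. Rbm15b was not analysed here beyond its gene model and surroundings.

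Rif1 is a large nuclear protein that recruits protein phosphatase 1 to chromatin. It sets the timing of DNA replication, acts with 53BP1 in the choice of how a DNA break is repaired, and has been linked to heterochromatin in embryonic stem cells. Spen (also called SHARP or Mint) binds RNA through RRM domains at one end and recruits HDAC3-containing corepressors through a SPOC domain at the other. It is needed for gene silencing by the Xist RNA and is a corepressor of the Notch effector Rbpj. Rbm15 and Rbm15b are smaller proteins of the same RRM and SPOC architecture, known as adaptors of the m6A writer complex that also bind Xist.

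All cells were diploid mouse embryonic stem cells with a wild-type background, and each screen used a single clonal reporter line, so that reporter and clone cannot be told apart. The repressor line carried pEF1-BFP-7xTetO-pPGK-Puro-IRES-GFP and the activator line 7xTetO-pMYLPF-Puro-IRES-GFP, both at an expression-stable site on chromosome 15, while the PTGR line carried Puro-IRES-GFP-10xBoxB at a random site. A retroviral cassette spliced a tag onto the gene downstream of its insertion site: TetR with a nuclear localization signal for the first 2 lines, and the RNA-binding λN peptide for the PTGR line. Unsorted cells had passed drug selection only, and sorted cells were those with raised GFP (activator) or lost GFP (repressor), or, for PTGR, those that lost GFP over repeated sorts and regained it once Cre had removed the boxB sites. Each screen had 2 sorted and 2 unsorted libraries, and the sum of the 6 unsorted libraries (1022126 insertions) is called the background. A library held 14705 to 22266 insertions within 200 kb of an acceptor exon in the activator and repressor sorted cells, 58560 and 60980 in the PTGR sorted cells, and 54088 to 233799 in the unsorted cells. Levels below are insertions of a gene per 10000 insertions of the library, and the intervals are 95% Wilson intervals, which cover counting error only.

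The tag can join Rif1 or Spen only at a splice acceptor, so the acceptors that took the insertions are shown first. Each is 30 bases of the reference (RefSeq, GRCm38.p6) in the direction of the gene, with the intron in lower case and the exon in capitals.
Rif1 exon 2 (chr2:52073123-52073152, plus strand): cggcctcgctgcagGGTGGCGGCCGACATG
Rif1 exon 3 (chr2:52074233-52074262, plus strand): tatttcctttaaagTCGTATGACTGGAGAA
Rif1 exon 4 (chr2:52076067-52076096, plus strand): actttgttttgtagGCTCACATTTCCAGTC
Spen exon 2 (chr4:141522377-141522406, minus strand): tttttccctcccagATATGGCCGCGTGGAA
Rbm15 exon 2 (chr3:107326289-107326318, minus strand): ccccctcccgcaagCAAAACTGGTGAACAG
The Rif1 exon 2 acceptor lies 13 bases before the start codon, so its fusion keeps 100% of the 7278 coding bases. Fusions at exons 3 and 4 keep 98.6% and 97.5%. The Spen exon 2 acceptor leaves out 83 coding bases and keeps 99.2% of 10929. Counted as the remainder of the skipped coding bases after division by 3, these acceptors are not all in the same frame: 2 for Rif1 exon 3, 0 for Rif1 exon 4 and 2 for Spen exon 2. The Rif1 exon 2 acceptor skips no coding bases, and its frame depends on the 13 bases before the start codon. The cassettes had been supplied in all frames. Rbm15 has 2 exons in GENCODE vM21, and its exon 2 acceptor keeps 20 of 2886 coding bases, or 0.693%.

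Rif1 (ENSMUSG00000036202, chr2:52072832-52122383 on the plus strand, 36 exons) was reached from close by. Of its 183 background insertions, 129 (70.5%, interval 63.5 to 76.6) lay upstream of the start site, 50 (27.3%) in introns and 4 in exons. Most were compact around the promoter: 105 fell from 5 kb to 1 kb before the start site and 50 in the first 5 kb of the gene. The median distance to the acceptor was 2256 bp. Among the 5254 genes with at least 50 background insertions the median of this distance was 32037 bp, and 4.15% of those genes had a shorter one than Rif1. Spen (ENSMUSG00000040761, chr4:141467890-141538597 on the minus strand, 16 exons) was reached from afar. Of its 255 background insertions, 220 (86.3%, 81.5 to 90.0) lay 20 to 40 kb upstream of the start site and 0 lay in the 5 kb before the start site. Its median distance was 44505 bp, and 60.7% of the 5254 genes had a shorter one.

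**Figure D1:**
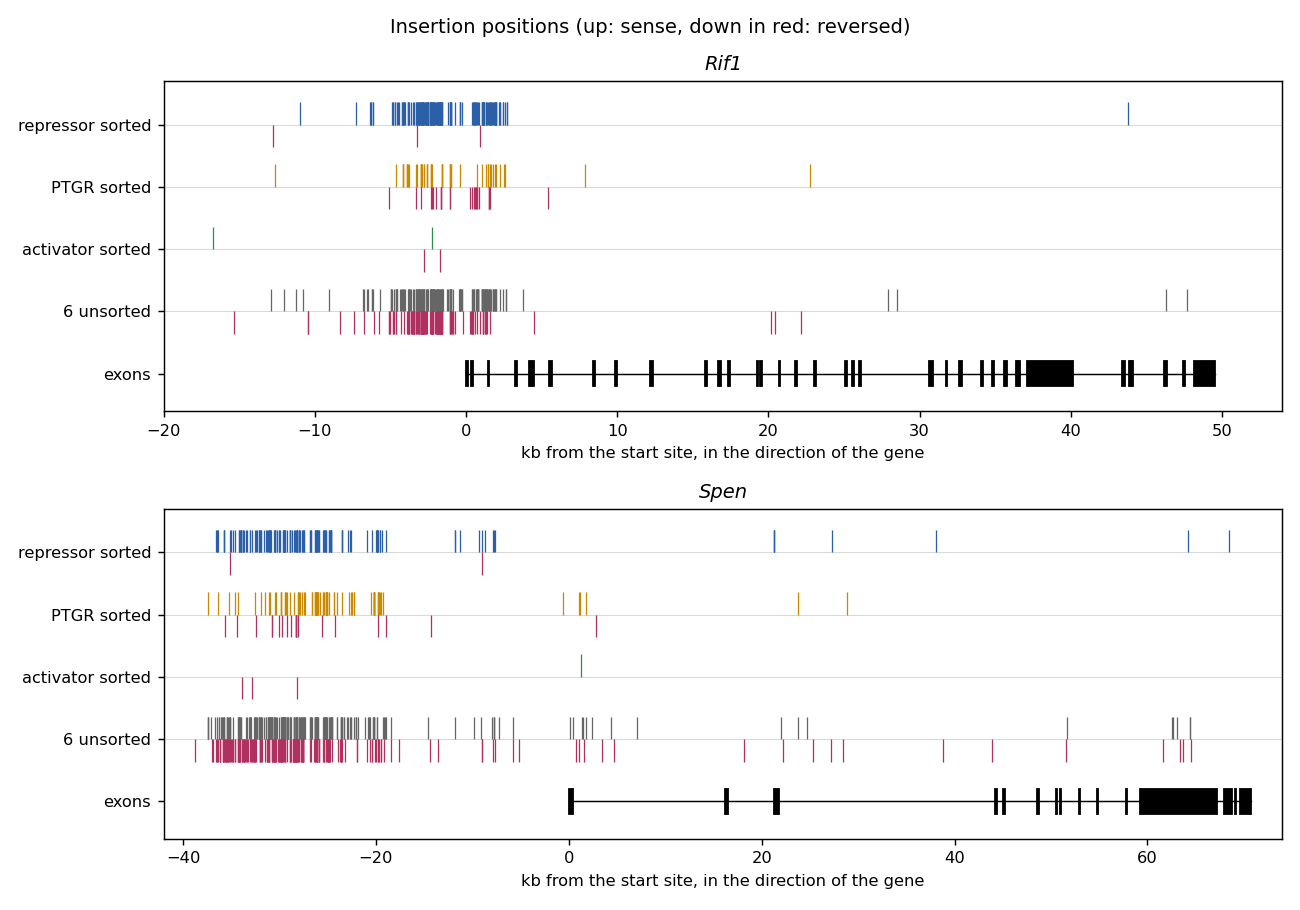
Positions of insertions at Rif1 and Spen, in kb from the start site along the gene, for both sorted libraries of each screen and for the 6 unsorted libraries. Ticks upward are sense insertions, red ticks downward are insertions on the other strand, and black boxes are exons. Most sense insertions lie within 5 kb of the start site for Rif1 and 20 to 40 kb before it for Spen, in repressor sorted, PTGR sorted and unsorted cells. The activator sorted cells hold only 2 sense insertions at Rif1 and 1 at Spen, which do not follow this.

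The upstream shares after sorting were close to those before it. In the repressor sorted cells 112 of 164 Rif1 insertions (68.3%, 60.8 to 74.9) and in the PTGR sorted cells 36 of 51 (70.6%, 57.0 to 81.3) were upstream of the start site, and both intervals include the background share. For Spen the upstream share was 95.3% (90.7 to 97.7) of 150 in the repressor and 94.0% (86.8 to 97.4) of 84 in the PTGR sorted cells, against 93.3% in the background. Of the Rif1 insertions, 99.4% in the repressor and 96.1% in the PTGR sorted cells led to an acceptor that keeps at least 95% of the coding sequence, against 97.8% in the background. The corresponding Spen shares were 97.3%, 97.6% and 96.5%. Exon 2 took 112 of the 164 repressor sorted Rif1 insertions, exon 3 took 25 and exon 4 took 26, and for Spen exon 2 took 143 of 150. In the PTGR sorted cells exon 3 of Rif1 took 5.88% (2.02 to 15.9) and exon 4 took 19.6% (11.0 to 32.5), against 16.9% (12.2 to 23.0) and 9.84% (6.31 to 15.0) in the background, with overlapping intervals.

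**Figure D2:**
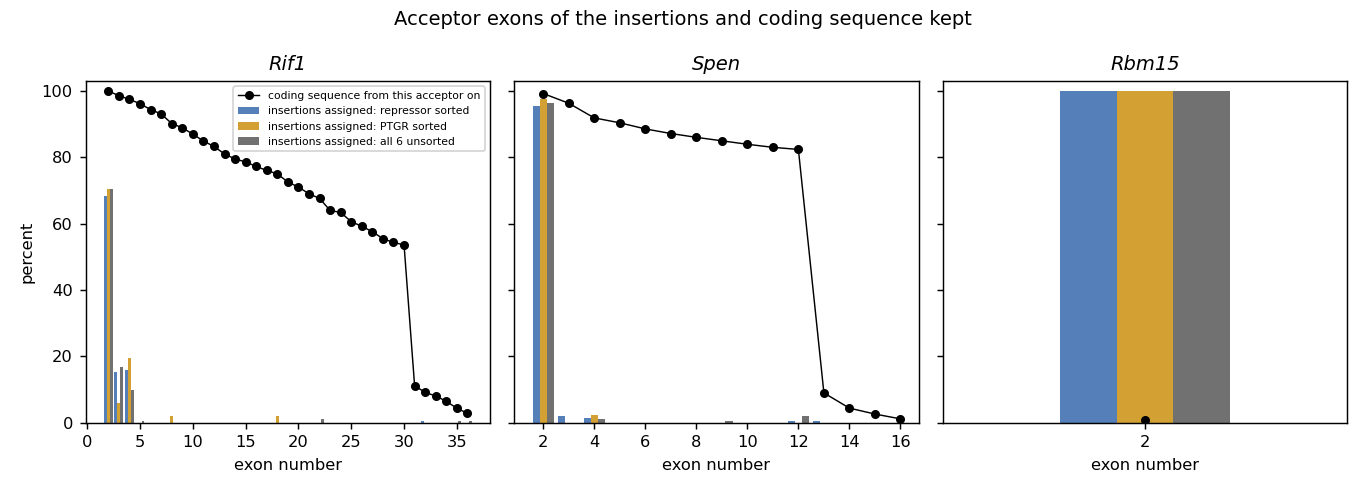
Exon number (x axis) against percent (y axis) for Rif1, Spen and Rbm15: bars give the share of insertions assigned to each acceptor exon, in the repressor sorted, PTGR sorted and 6 unsorted libraries, and points the share of coding sequence from that acceptor on. Rif1 and Spen insertions led to acceptors that keep nearly all of the protein, whereas 100% of the 53 background insertions of Rbm15 led to an acceptor that keeps 0.693%.

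In the repressor screen Rif1 and Spen stood far above the background in both replicates. The 2 sorted libraries share some positions, as given below, so they may not be fully independent. Their 164 Rif1 insertions lay at 146 distinct positions and their 150 Spen insertions at 134. Rif1 had 85 and 79 insertions, or 38.2 (interval 30.9 to 47.2) and 52.0 (41.7 to 64.7) per 10000, against 0.924 to 2.44 per 10000 in the 6 unsorted libraries. Spen had 99 and 51 insertions, or 44.5 (36.5 to 54.1) and 33.5 (25.5 to 44.1) per 10000, against 1.78 to 3.61. For both genes the lower sorted library lay above the highest unsorted one, which held for 16.6% of the 2346 genes with at least 3 repressor sorted insertions. The mean was 45.1 ± 9.75 per 10000 (SD, n = 2) for Rif1 against 1.67 ± 0.558 (n = 6) in the unsorted libraries, and 39.0 ± 7.72 against 2.44 ± 0.703 for Spen. The log2 odds ratio was 4.62 ± 0.16 (SE from counting) for Rif1 and 4.01 ± 0.15 for Spen. A gene is called here when its adjusted p in a one-sided Fisher's exact test is below 0.001 and its log2 odds ratio is at least 1. Of the 3 genes, 2 were called, as were 8.18% of the genes tested, and nothing is read from this since the screen chose them. Among the 192 genes called, whose median log2 odds ratio was 4.30, Rif1 ranked 83 and Spen 110 by odds ratio, and 32 and 36 by number of sorted insertions. Leaving out either sorted library gave 4.42 and 4.87 for Rif1 and 3.75 and 4.16 for Spen. With the unsorted libraries of the repressor screen alone as background the values were 4.48 and 3.72.

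**Figure D3:**
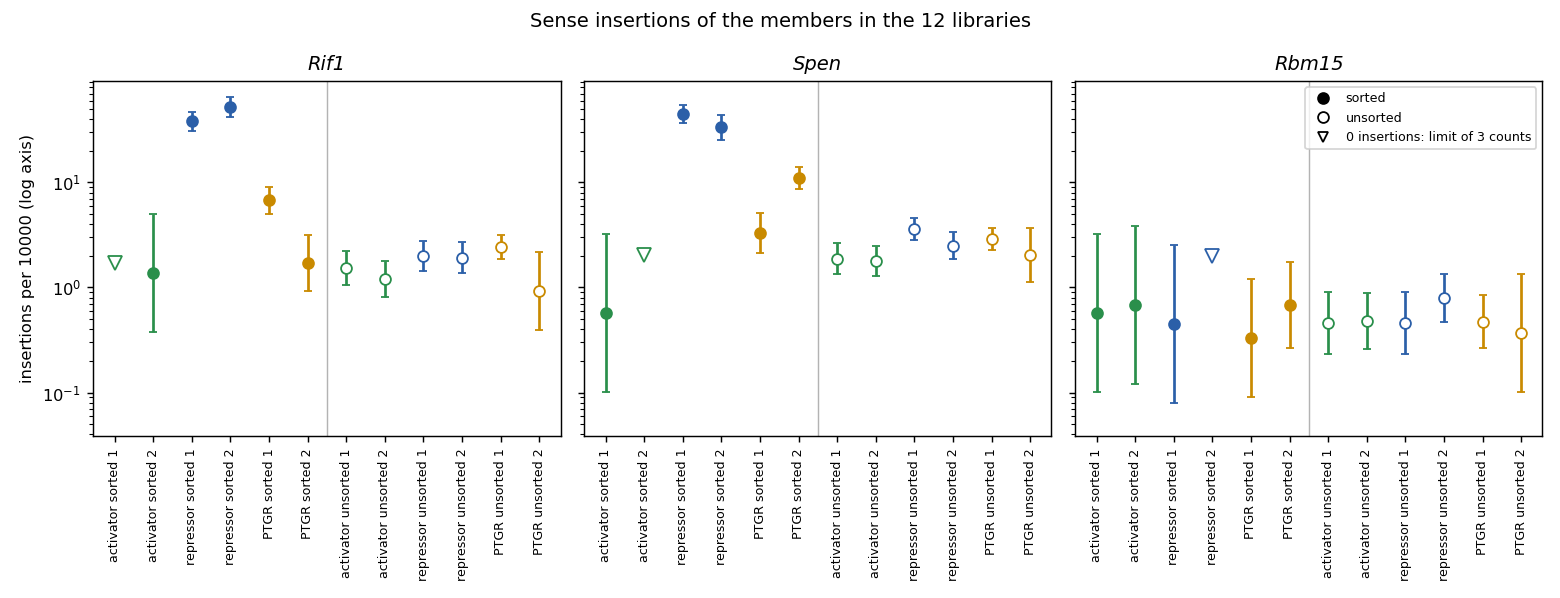
Sense insertions of Rif1, Spen and Rbm15 per 10000 insertions (log axis) in each of the 12 libraries, with 95% Wilson intervals. Filled points are sorted and open points unsorted libraries, and a triangle marks the limit of 3 counts for a library with 0 insertions. Repressor sorted libraries stand above all unsorted ones for Rif1 and Spen, and the PTGR sorted replicates differ from each other.

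In the PTGR screen the enrichment over the background was smaller. For each gene it came mainly from 1 replicate, a different one for each gene. Rif1 had 41 and 10 insertions, or 6.72 (4.96 to 9.12) and 1.71 (0.928 to 3.14) per 10000. Replicate 1 lay above all 6 unsorted libraries and replicate 2 within their range. Spen had 20 and 64 insertions, or 3.28 (2.12 to 5.07) and 10.9 (8.56 to 13.95) per 10000. Here replicate 2 lay above all 6 unsorted libraries and replicate 1 below the highest of them. Neither gene thus had both sorted libraries above the unsorted range, which 7.83% of the 9303 genes with at least 3 PTGR sorted insertions had. PTGR libraries of the same number share positions, as given at the end, so each was also set against its own number. Rif1 then had 6.72 against 2.44 in replicate 1 and 1.71 against 0.924 in replicate 2. Spen had 3.28 against 2.87 and 10.9 against 2.03, so both genes were higher in the sorted library each time. The intervals overlapped for Rif1 in replicate 2 and for Spen in replicate 1. The means were 4.22 ± 3.55 (SD, n = 2) for Rif1 and 7.10 ± 5.41 for Spen, and the difference between the replicates was larger for both than the distance of the lower replicate from the background. The log2 odds ratio was 1.25 ± 0.23 for Rif1 and 1.49 ± 0.18 for Spen (SE from counting). Of the 3 genes, 2 were called, as were 0.666% of the genes tested. By odds ratio Spen ranked 55 and Rif1 59 among the 62 genes called, whose median was 2.70. Without PTGR sorted replicate 1 the Rif1 value was -0.07 and the call ended. Without replicate 2 the Spen value was 0.39 and the call ended. The edgeR test over all genes, which takes the spread between the 2 sorted and 2 unsorted PTGR libraries into account, called 0 of the 3 genes, against 0.33% of all genes tested. Before adjustment 141 genes had p below 0.05 and a log2 fold change of 1 or more. It also called 0 of the 3 without a filter on low counts (0.199% of genes) and so did DESeq2 (0.342%). These fits leave out the pairing by number, and edgeR with a replicate block, which takes it into account, called 2 (0.495%).

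The 2 genes differed in how many of their positions recurred between screens. Rif1 had 146 distinct positions in the repressor sorted and 51 in the PTGR sorted libraries, and 10 were identical to the base and strand, which is 6.85% of the first and 19.6% (11.0 to 32.5) of the second. Spen had 134 and 84 distinct positions, of which 2 were shared, 1.49% and 2.38% (0.655 to 8.27). Over all genes the share of the 119145 PTGR sorted positions that the repressor sorted libraries also listed was 0.374%, and it was 8.69% over the other 190 genes called in the repressor screen. Over the 3 other genes called in both silencing screens it was 17.4% (15.3 to 19.8), close to the Rif1 share. Those 3 genes differ from Rif1 and Spen in that their insertions on the other strand were also called in the PTGR screen. Between the PTGR sorted replicates 0 positions were shared for either gene, where 0.65% of the replicate 1 positions were shared over all genes. Of the positions in repressor sorted replicate 1, replicate 2 also listed 18 (21.2%) for Rif1 and 16 (16.2%) for Spen, next to 18.8% over all genes. The position found most often at Rif1 lay 3.12 kb before its start site and was listed in both repressor sorted libraries, repressor unsorted replicate 2 and PTGR unsorted replicate 1, 1 of 4 positions in as many libraries. The one at Spen lay 28.0 kb before its start site and was listed in both repressor sorted libraries, PTGR sorted replicate 1 and PTGR unsorted replicate 1. They are shown with 30 bases of the reference, GRCm38.p6, on the strand of the gene and with the listed base in capitals.
Rif1 recurrent position (chr2:52069692-52069721, plus strand): ttagggtgtgtggggGagatagaaagtgta
Spen recurrent position (chr4:141566604-141566633, minus strand): ctgcatagtgagacCatgtctcaaaaacaa

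The PTGR call of Rif1 ended without the positions that sorted libraries of both silencing screens list, and that of Spen was kept. Such positions are in a PTGR sorted library by definition, so leaving them out lowers mainly the sorted counts. Without all positions in more than 1 library the Rif1 value was higher than with them, as given at the end. When the positions listed in sorted libraries of both silencing screens were left out of all libraries, an alternative chosen after seeing the data, Rif1 kept 34 and 7 insertions in the PTGR sorted replicates, or 5.60 and 1.20 per 10000. Its log2 odds ratio was then 0.97 and the call ended. Spen kept 19 and 63 insertions, and its value of 1.48 kept the call. In the repressor screen the same step gave 4.54 for Rif1 and 4.01 for Spen. Merging positions within 10 bp of each other in a library also took 51 Rif1 insertions of the PTGR sorted cells to 41, with a value of 1.09 and no call, and with the PTGR unsorted libraries alone as background the Rif1 value was 0.99 and the call ended. For Spen these steps gave 1.48 and 1.38 with the call kept. Whether the same positions in 2 reporter lines come from separate events or from carry-over between libraries was not tested.

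**Figure D4:**
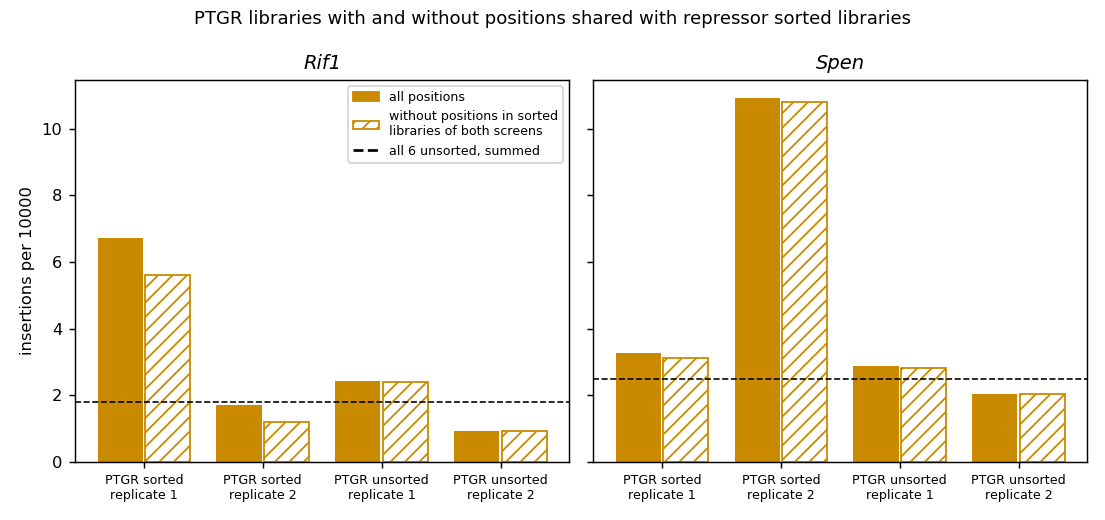
Sense insertions per 10000 at Rif1 and Spen in the 4 PTGR libraries, with all positions (filled bars) and without positions that sorted libraries of both silencing screens list (hatched bars). The dashed line is the level in the summed 6 unsorted libraries. Rif1 in sorted replicate 1 goes from 6.72 to 5.60 and in replicate 2 from 1.71 to 1.20, while Spen in replicate 2 goes from 10.9 to 10.8.

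Insertions on the other strand cannot be spliced to the gene and serve as a control. In the repressor sorted cells 164 of 167 Rif1 insertions were sense, 98.2% (94.9 to 99.4), against 57.9% (52.4 to 63.2) of 316 in the background. For Spen 150 of 152 were sense, 98.7% (95.3 to 99.6), against 55.2% (50.6 to 59.7) of 462. Over all genes the sense share in the repressor sorted libraries was 55.1% and 54.2%. In the PTGR sorted cells the sense share of Rif1 was 67.1% (55.9 to 76.6) of 76, which lay within the interval of 58.0 to 76.8 around the 68.1% of the PTGR unsorted libraries. Its 25 reversed PTGR sorted insertions had a log2 odds ratio of 0.69 ± 0.31. The Spen share was 80.8% (72.2 to 87.2) of 104 PTGR sorted insertions, against 61.4% (52.7 to 69.4) in the PTGR unsorted libraries, and was higher in replicate 2 at 88.9% than in replicate 1 at 62.5%. With 20 reversed insertions Spen had a reversed log2 odds ratio of -0.27 ± 0.34. For reversed insertions 0 of the 3 genes were called in any screen, while 5.61% of the genes tested were in the repressor, 0.5% in the PTGR and 3.14% in the activator screen. All 3 were tested in the PTGR screen. Only Rif1 in the repressor and only Spen in the activator screen had the minimum of 3 reversed sorted insertions. For the other genes in those screens the lack of a call was given by this minimum.

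**Figure D5:**
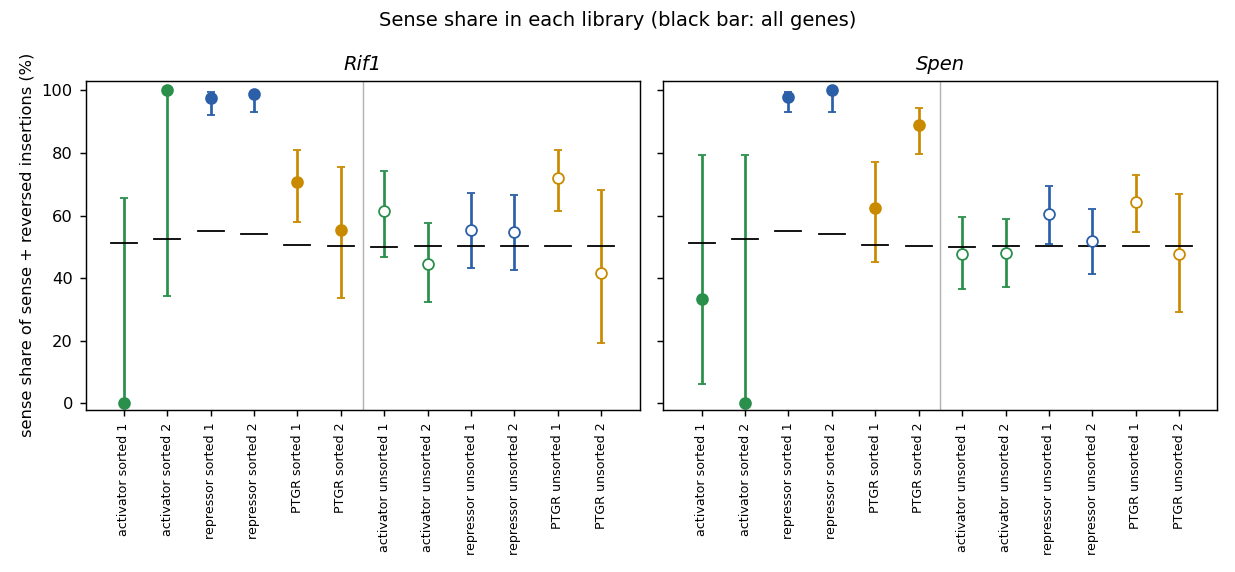
Share of sense among sense and reversed insertions (%) at Rif1 and Spen in each of the 12 libraries, with 95% Wilson intervals. Filled points are sorted and open points unsorted libraries, and the black bar is the share over all genes in that library. Both repressor sorted libraries are at 97.7% or above for both genes, and in the PTGR sorted libraries the highest share is 88.9% for Spen in replicate 2.

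The activator screen, which did not enter the choice of the genes but shares the background libraries, had few insertions at any of them. Rif1 had 0 and 2 sorted insertions, and Spen 1 and 0, against 5.75 and 8.01 insertions that the background share would give at this depth. The replicates with 0 allow up to 1.72 per 10000 for Rif1 and 2.04 for Spen, next to 1.79 and 2.49 per 10000 in the summed background. The log2 odds ratio was -1.52 (95% interval -3.53 to 0.49) for Rif1 and -3.00 (-5.84 to -0.17) for Spen. With fewer than 3 sorted insertions each, the 3 genes were not tested for more insertions than the background (4.64% of the genes tested were called), so that 0 calls among them were given by this minimum. In a one-sided Fisher's exact test for fewer insertions than in the background, run after seeing the data, Spen had p = 0.00329 and an adjusted p of 0.764, and Rif1 had p = 0.0773. That test had 591 of 18319 genes at an unadjusted p below 0.05 and called 0. In edgeR's quasi-likelihood test the Spen log2 fold change was -2.55 with a Benjamini-Hochberg adjusted p of 0.488.

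The unsorted libraries showed whether the cassettes reached the genes alike before selection. Per 10000 insertions, the 4 TetR unsorted libraries ranged from 1.20 to 2.01 for Rif1. The λN libraries had 2.44 and 0.924, the first above and the second below that range. For Spen the TetR libraries ranged from 1.78 to 3.61, and the λN libraries, with 2.87 and 2.03, fell within that range. In edgeR's quasi-likelihood test of λN against TetR libraries the log2 fold change was 0.21 for Rif1, 0.04 for Spen and -0.35 for Rbm15, with Benjamini-Hochberg adjusted p of 0.920, 0.992 and 0.925. Of the 3 genes, 0 were called, as were 0.208% of the 12033 genes tested. Cassette and reporter line go together in this contrast and cannot be told apart.

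Rbm15 (ENSMUSG00000048109, chr3:107325421-107333673 on the minus strand) had low levels in every library. It had 53 background insertions (0.370 to 0.791 per 10000 in single unsorted libraries), of which 92.5% lay upstream of its start site. Sorted cells held 1 and 0 insertions in the repressor, 2 and 4 in the PTGR and 1 and 1 in the activator screen. The log2 odds ratio was -0.96 (95% interval -3.81 to 1.9) in the repressor, -0.05 (-1.26 to 1.17) in the PTGR and 0.26 (-1.77 to 2.3) in the activator screen, and the intervals include the threshold of 1 in each. As its 1 acceptor keeps 6 codons, a fusion made there would lack nearly all of the Rbm15 protein. Rbm15b (chr9:106880918-106887428 on the minus strand) has a main transcript of 1 exon. Within the gene or the 5 kb before it, the background held 3 insertions on its strand, all assigned to Manf, and PTGR sorted replicate 1 held 2, both assigned to Rad54l2.

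Genes that work with the members were counted from lists drawn up with earlier results of these data known. Of 9 corepressor partners of Spen, 7 had at least 3 repressor sorted insertions and 2 of these were called, against 8.18% of all genes tested. The median log2 odds ratio of the 7 was 1.91, against -0.39 over all genes tested. Ncor1, a scaffold of the HDAC3 complex, had 256 and 136 sorted insertions and a value of 3.44 ± 0.09. Rbpj, the DNA-binding effector of Notch, had 212 and 86 and a value of 3.86 ± 0.10. Among those not called, Tbl1xr1 had 4 and 1 sorted insertions. In the PTGR screen 0 of the 6 tested were called (0.666% of all genes tested were), with a median of 0.55 against 0.14 over all genes, and Ncor1 and Rbpj had -0.19 ± 0.15 and -1.19 ± 0.27. In the activator screen 0 of the 3 tested were called, against 4.64% of all genes tested. Among these partners no gene had both a repressor and a PTGR call. Of all 20409 genes 5 had both, among them Spen, which was picked for its values in both screens, so nothing is read from this. The difference between the screens was not tested.

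The m6A writer complex, to which Rbm15 and Rbm15b belong, was thinly covered: of 6 genes, 1 was tested in the repressor screen, 2 in the activator screen and 4 in the PTGR screen. None was called in the first 2 screens and 1 in the PTGR screen, against 8.18%, 4.64% and 0.666% of all genes tested. This was Virma, the scaffold of the complex, with 27 and 15 insertions in the PTGR sorted replicates, and its log2 odds ratio was 2.20 ± 0.28. Its reversed insertions were called as well. The catalytic subunit Mettl3 had 3 and 2 and the regulatory subunit Wtap 13 and 27 PTGR sorted insertions, and neither was called. Of the 3 other SPOC-domain genes (Dido1, Phf3 and Spocd1), 1 was tested in the repressor screen, 0 in the activator screen and 3 in the PTGR screen. None of those tested was called, against 8.18%, 4.64% and 0.666% of all genes tested. Of the 8 partners of Rif1 in phosphatase recruitment and break repair, 0 were called in any screen, where 2 were tested in the repressor screen, 4 in the activator screen and 8 for PTGR, and 8.18%, 4.64% and 0.666% of all genes tested were called. The 8 had a PTGR median of -0.21 against 0.14 over all genes tested. Shld2, a shieldin subunit, had 11 and 6 PTGR sorted insertions, the phosphatase subunit Ppp1cc had 9 and 6 and Mad2l2 had 9 and 6.

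The genes next to the members had few sorted insertions. Tnfaip6, upstream of Rif1 on the same strand, had 75 background and 0 repressor sorted insertions, and Neb, downstream, had 7 and 0. Fblim1, upstream of Spen on the same strand, had 93 and 0, and Zbtb17, which overlaps the end of Spen on the other strand, had 14 and 1. In the PTGR sorted cells these genes had 9, 3, 6 and 4 insertions. None of these 4 genes was called in any of the 3 screens, for sense or reversed insertions. For sense insertions none reached the minimum of 3 in the repressor or activator screen, so they were tested only in the PTGR screen. Of the reversed counts in those other screens, only the 5 of Tnfaip6 in the repressor screen reached it. In the PTGR screen 0.666% of all genes tested were called for sense and 0.5% for reversed insertions.

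By the Pearson correlation of log2 levels over the 12 libraries, with 4532 genes compared, the genes most like Rif1 were Chd4 (r = 0.964), Atf1 (0.956) and Cbx7 (0.951). Those most like Spen were Grhl2 (0.976), Trim8 (0.941) and Phf21a (0.938). All 6 were called in the repressor screen, where 8.18% of all genes tested were, and none in the PTGR screen, where 0.666% were. Likeness was measured over the same libraries, so the repressor calls largely follow from how these genes were picked, and nothing is read from them. Rif1 and Spen had r = 0.738 with each other, rank 101 for Rif1 and 169 for Spen. The 12 libraries differ in depth and all 6 unsorted ones are shared background, so r is given as a description with no p.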

How the data were processed

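ORFtag insertions in mouse embryonic stem cells were mapped by inverse PCR and sequencing. Per the labels and methods, the authors trimmed reads (Trim Galore 0.6.0), aligned them to mm10 with Bowtie2, used SAMtools 1.9, and gave every insertion the closest non-first exon downstream on its strand (GENCODE protein-coding transcripts). The authors deposited 24 lists with the distance to that exon, for the true and the reversed strand, and 3 tables of insertion counts by gene, pooled over replicates. Their columns of odds ratios, adjusted p-values and hits were not used.

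A position was counted once per library (100% of positions in the repressor unsorted libraries and 12.7% in PTGR sorted replicate 2 were listed more than once), up to 200 kb from the exon, for 20409 genes. For each screen the summed sorted libraries were set against all 6 unsorted ones with Fisher's exact test (one-sided, SciPy 1.17.1), with Benjamini-Hochberg adjustment over genes having 3 or more sorted insertions. Alternatives were other backgrounds, distances, minima, thresholds and counting rules, the deposited counts, each library left out, edgeR 4.0.16 (TMM, quasi-likelihood, adjusted p below 0.05 and log2 fold change of at least 1) with and without a replicate block, and DESeq2 1.42.0 in R 4.3.3. Leaving out positions that several screens list, and the test for fewer insertions, were added after seeing the data. Standard errors of odds ratios cover counting error only, and the p-values of Fisher's test leave out the spread between replicates. The scripts were tested on simulated data. Gene models are GENCODE vM21 on GRCm38, where 100% of the members' insertions pointed to an acceptor. Likeness used log2(level + 0.1) over genes with at least 50 insertions, 10 of them sorted. The genes named are the members, their neighbours, the 3 genes most like Rif1 and Spen, and list genes called in a screen plus at most 3 others per list with the most background insertions. Mettl3 was among these, and a gene of the lists is not reported here. The members and lists were chosen with earlier results of these data known.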

Additional observations from a re-analysis of the deposited data

Results flagged for a closer look

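Rbm15 stood out once among the 6 unsorted libraries: repressor unsorted replicate 2 had 0.791 sense insertions per 10000 (14 insertions), farther above the others than Dixon's limit for 6 values allows. Chance flags about 1 in 20 such groups, and 12 ends were looked at. Some effects had opposite directions between screens in both replicates of each, and these differences were not tested. Rif1 had a log2 odds ratio of 4.62 in the repressor and -1.52 in the activator screen. Spen had 4.01 in the repressor and 1.49 in the PTGR screen against -3.00 in the activator screen. Rbm15 had 0.26 in the activator and -0.96 in the repressor screen, from 2 and 1 sorted insertions. The screens share the background libraries, and 0 of these activator values passed a test.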

How the results depend on the processing

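In the repressor screen the values of Rif1 and Spen kept their direction under every alternative run. The number of genes called went from 192 to 74 with edgeR without a filter on low counts, and of reversed calls from 125 to 72 within 50 kb. In the PTGR screen, 62 genes became 40 with the background of that screen, 121 at an adjusted p below 0.05, 28 with edgeR without a replicate block, 34 with edgeR without a filter and 29 with DESeq2, and reversed calls went from 46 to 29 with the own background. Of the 2 PTGR members called, 1 was left with the own background, with positions within 10 bp merged, without positions in more than 1 library, in more than 1 screen, or in sorted libraries of both silencing screens, and 0 with edgeR without a block (with or without the filter) and DESeq2. When single libraries were left out, 1 to 2 were left.

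The Rif1 PTGR value of 1.25 was 0.99, 1.09, 1.33, 1.16 and 0.97 under those position and background settings, in that order, 1.15 and 0.99 with edgeR and without its filter, 1.38 with DESeq2, and -0.0683 to 1.91 with a library left out (the lowest without PTGR sorted replicate 1). The Spen PTGR value of 1.49 was 1.48, 1.33 and 1.57 with these tools, and 0.39 to 2.13 with a library left out. Rbm15, near 0 in the PTGR screen (-0.05), was 0.15, 0.0136, 0.25 and 0.00511 under the first 4 of the position and background settings, 0.22 with edgeR, 0.0501 without its filter, 0.30 with DESeq2, and -0.66 to 0.40 with a library left out. Its activator value was -0.45 without positions in more than 1 library.

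The replicate numbers were tried as a block in edgeR. Same-numbered libraries deviated together with correlations of 0.0586 in the activator, -0.0221 in the repressor and 0.269 in the PTGR screen. Over all genes, PTGR sorted replicate 1 shared 19.5% of its positions with unsorted replicate 1 and 0.40% with unsorted replicate 2, PTGR sorted replicate 2 shared 6.98% with its own number and 1.93% with the other, and repressor sorted replicate 1 shared 8.5% and 10.0%. Activator sorted replicate 2 shared 19.2% with unsorted replicate 2 and 1.39% with unsorted replicate 1. The numbers thus go with shared positions in the PTGR screen and for activator sorted replicate 2, but not for repressor sorted replicate 1. With the block 2 PTGR members were called, with values of 1.44 for Rif1 and 1.19 for Spen, and Rbm15 had 0.14. For λN against TetR unsorted libraries, 25 genes became 5 with DESeq2, 16 within 50 kb and 0 to 23 with a library left out. Spen there had 0.04, -0.15 within 50 kb, -0.0576 with the replicate block and as low as -0.41 with a library left out, and Rif1, with 0.21, ranged from -0.99 (without PTGR unsorted replicate 1) to 0.53. The causes of these changes were not tested. Depth limits the activator and Rbm15 values, which rest on 0 to 4 insertions a sorted library.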
